A study of Mus musculus with 10 samples.

Results

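Gene expression in cultured mouse cortical neurons under sodium arsenite was compared between neurons lacking the transcription factor ATF4 and wildtype neurons. The comparison takes 6 of the 10 arrays of the series, the 2 ATF4-deficient and the 4 wildtype arrays whose titles name arsenite. The other 4 arrays, 2 of each genotype under vehicle, are given beside them. All neurons came from embryos of embryonic day 14.5 to 15.5, were plated in Neurobasal medium with B27 plus and were treated on day 7 in culture, with 5 µM sodium arsenite or vehicle, for 12 hours. The labels call 1 genotype wildtype and the other ATF4 deficient. They name neither the allele nor the part of Atf4 that was removed. They also do not say whether the loss was limited to a cell type, or whether replicates came from separate embryos, litters or cultures. For each of 22180 genes the array gives a robust multiarray average (RMA) value on the log2 scale, on which a difference of 1 is a doubling. Differences are ATF4-deficient minus wildtype throughout.

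ATF4 is the transcription factor that carries the integrated stress response. Kinases that sense stress phosphorylate the initiation factor eIF2α, which slows most protein synthesis but lets the ATF4 message be translated. ATF4 then pairs with C/EBP-family partners at composite C/EBP-ATF elements and switches on genes for amino acid synthesis and import, for the charging of tRNAs and for feedback on translation. Arsenite reacts with protein thiols and is a classical trigger of this pathway, through the haem-regulated eIF2α kinase, and of the antioxidant pathway driven by NRF2.

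The call rule was a Benjamini-Hochberg adjusted p of 0.05 in limma over all genes. Under arsenite 76 genes passed it (0.343% of those tested), 60 of them lower in ATF4-deficient neurons (0.271%) and 16 higher (0.0721%). Of the 60 lower genes, 31 belong to 7 lists built around ATF4 output, which hold 87 of the 22180 genes tested. The lists were set up with earlier results of these arrays known, so that count is a description. Of the 60, 25 differed by at least 1 log2. Of the 16 higher genes, 0 were on these lists and 0 differed by that much. The higher genes include 3 endoplasmic reticulum chaperones and the eIF2α kinase PERK. In all 76 genes both ATF4-deficient arsenite arrays lay beyond every wildtype arsenite array, an arrangement found in 18.5% of all genes (lower in 7.95% and higher in 10.6%). The 76 were chosen by a test on these same arrays, which favours that arrangement, so it is not separate evidence. The median difference over all genes was 0.02 log2.

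**Figure D1:**
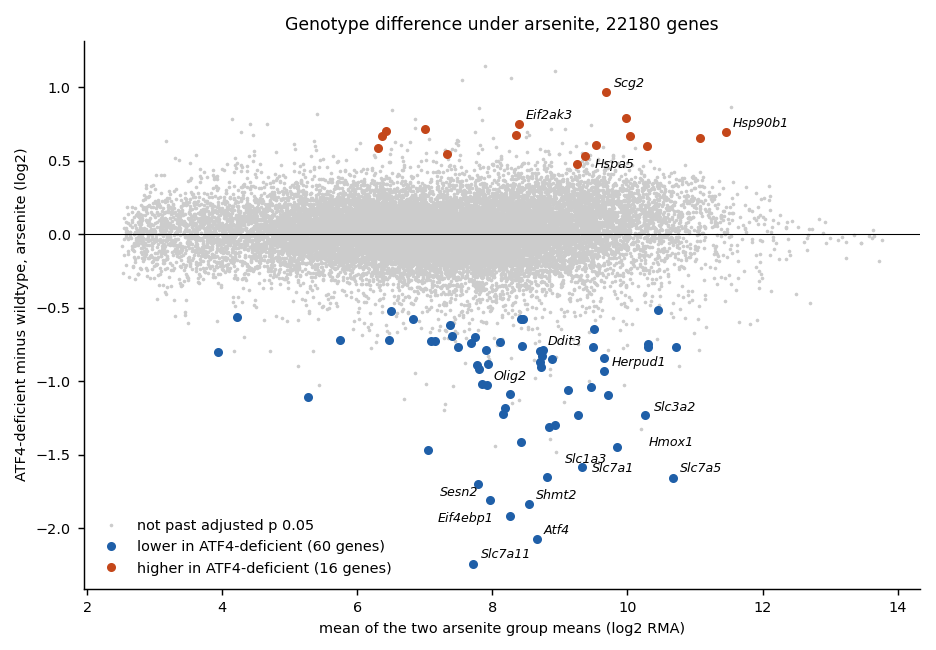
Genotype difference under arsenite (vertical axis, log2) against the mean of both group means (horizontal axis, log2 RMA), 1 point per gene. The 60 genes called lower (blue) reach -2.24 log2 at Slc7a11, and the 16 called higher (red) reach 0.97 at Scg2; Hmox1 and Slc1a3 are labelled among genes that did not pass.

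Promoters were searched first for the composite C/EBP-ATF element, and those of a few called genes are shown. The windows are the 250 bases before the annotated start (RefSeq, GRCm38.p6), 5′ to 3′ on the gene's strand. They were searched on both strands for TGATGNAA, the core of the C/EBP-ATF element, which does not overlap another motif searched here. The core was found in 3.45% of 32851 such windows and in 3.40% of the 16990 tested genes that have a window. Among the genes of the 7 lists that were called lower, 5 of the 24 with a window held it (20.8%), namely Slc7a11, Tars, Chac1, Pck2 and Jdp2. Over all measured members of those lists it was 12 of 67 (17.9%), of which 7 did not pass the test. The windows of the 3 with the largest differences follow, with the matches in capitals. They are those of Slc7a11 (chr3:50443614-50443863, minus strand), Tars (chr15:11399659-11399908, minus strand) and Chac1 (chr2:119350992-119351241, plus strand). Shmt2 (chr10:127522445-127522694, minus strand) is shown as a called gene of the same lists whose window holds no match.
Slc7a11: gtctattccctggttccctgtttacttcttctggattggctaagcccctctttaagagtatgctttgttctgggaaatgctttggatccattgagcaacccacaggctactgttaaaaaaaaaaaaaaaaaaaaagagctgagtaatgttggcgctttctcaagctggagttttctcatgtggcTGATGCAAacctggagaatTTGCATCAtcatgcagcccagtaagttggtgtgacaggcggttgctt
Tars: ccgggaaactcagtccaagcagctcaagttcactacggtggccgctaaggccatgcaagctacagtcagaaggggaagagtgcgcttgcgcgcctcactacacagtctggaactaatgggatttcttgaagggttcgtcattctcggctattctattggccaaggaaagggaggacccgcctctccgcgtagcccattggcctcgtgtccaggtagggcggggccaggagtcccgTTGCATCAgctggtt
Chac1: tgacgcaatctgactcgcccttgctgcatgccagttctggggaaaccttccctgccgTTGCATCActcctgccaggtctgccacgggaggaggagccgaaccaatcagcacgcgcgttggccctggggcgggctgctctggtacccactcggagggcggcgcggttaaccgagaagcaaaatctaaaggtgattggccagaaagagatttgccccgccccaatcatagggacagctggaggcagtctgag
Shmt2: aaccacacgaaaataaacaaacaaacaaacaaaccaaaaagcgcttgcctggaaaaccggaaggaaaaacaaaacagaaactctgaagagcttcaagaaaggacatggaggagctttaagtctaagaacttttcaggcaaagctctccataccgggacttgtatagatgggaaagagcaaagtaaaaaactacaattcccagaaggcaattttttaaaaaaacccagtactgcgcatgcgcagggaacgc
Slc7a11 has a pair of matches, on opposite strands, between 66 and 40 bases before the start. The match in Tars lies 15 to 8 bases and that in Chac1 193 to 186 bases before it. A match describes the letters only, and a window without one says nothing about elements elsewhere in the gene.

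Atf4 itself was read in every array. Its wildtype arsenite values were 9.43, 9.80, 9.64 and 9.91, and its ATF4-deficient arsenite values 7.54 and 7.70. Under vehicle it was at 9.09 and 9.56 in wildtype and 7.65 and 7.48 in ATF4-deficient arrays, so the genotypes did not overlap in either condition and every array sat on the side its label gives. The difference under arsenite was -2.08 log2, or 4.22-fold lower (SE 0.15, adjusted p = 0.000718), against -1.76 under vehicle. The deficient arrays stayed above 6.63, the level under which 90% of 1394 olfactory and vomeronasal receptor genes lay and which serves as a dim reference. Of the 40 measured genes nearest to Atf4 on chromosome 15, 20 on each side, its neighbour Rps19bp1 was the 1 gene called under arsenite. Rps19bp1 was at 7.56, 7.44, 7.45 and 7.37 in wildtype and 6.71 and 6.74 in ATF4-deficient arsenite arrays, a difference of -0.73 (adjusted p = 0.0165) beside -0.96 under vehicle. The other 39 neighbours lay between -0.42 and 0.54.

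Genes that regulate the stress response itself came next. Of 15 measured regulators, 7 were lower (Atf4 among them), 0 were higher and 8 did not pass, with a list median of -0.73 log2. Eif4ebp1, which encodes a repressor of cap-dependent translation, was at 8.92, 9.62, 9.31 and 9.05 in wildtype and 7.42 and 7.19 in ATF4-deficient arrays (difference -1.92, SE 0.31, adjusted p = 0.0298). Sesn2, a sestrin that restrains mTORC1 when leucine is short, was at 8.50, 9.17, 8.71 and 9.10 against 7.11 and 7.01. That difference of -1.81 (SE 0.24, adjusted p = 0.0102) amounts to a 3.50-fold lower level. Every wildtype arsenite array stood clear of both deficient arrays for these genes, whereas under vehicle the Sesn2 arrays overlapped, at 7.12 and 7.94 against 7.38 and 6.89.

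Chac1, an enzyme that degrades glutathione, differed by -1.18 (adjusted p = 0.0199). The bZIP partners ATF5 and CHOP followed it. Atf5 was at 8.39, 8.57, 8.26 and 8.29 in wildtype and 7.50 and 7.48 in ATF4-deficient arrays, a difference of -0.89 (adjusted p = 0.00793). Ddit3, which encodes the pro-apoptotic factor CHOP, was at 9.02, 9.31, 9.20 and 8.87 against 8.42 and 8.19 (-0.79, adjusted p = 0.0349). All 4 vehicle values of Ddit3, from 7.91 to 8.16, lay below all 6 arsenite values, and the vehicle difference was 0.02. Jdp2, a further bZIP repressor, differed by -0.73 (adjusted p = 0.0193). Of the brightest members that did not pass, the mTORC1 inhibitor Ddit4 was at -0.74 (adjusted p = 0.184), the C/EBP partner Cebpg at -0.39, the stress factor Atf3 at -0.15 and Klhl24 at 0.29.

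Upstream of ATF4, 11 genes for eIF2α kinases, phosphatase subunits and factors linked to them were measured, and 1 passed. Eif2ak3, which encodes the endoplasmic reticulum kinase PERK, was at 8.04, 8.10, 7.96 and 7.96 in wildtype and 8.74 and 8.78 in ATF4-deficient arsenite arrays. It was 1.68-fold higher (0.75 log2, SE 0.10, adjusted p = 0.0120) and was also called under vehicle (0.65, adjusted p = 0.0450), so the deficient arrays were the higher ones in both conditions. Eif2ak1, the haem-regulated kinase, was at 0.04 (adjusted p = 0.918), and Ppp1r15b, a subunit that directs eIF2α dephosphorylation, at -0.43 (adjusted p = 0.132). The list median was 0.04.

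**Figure D2:**
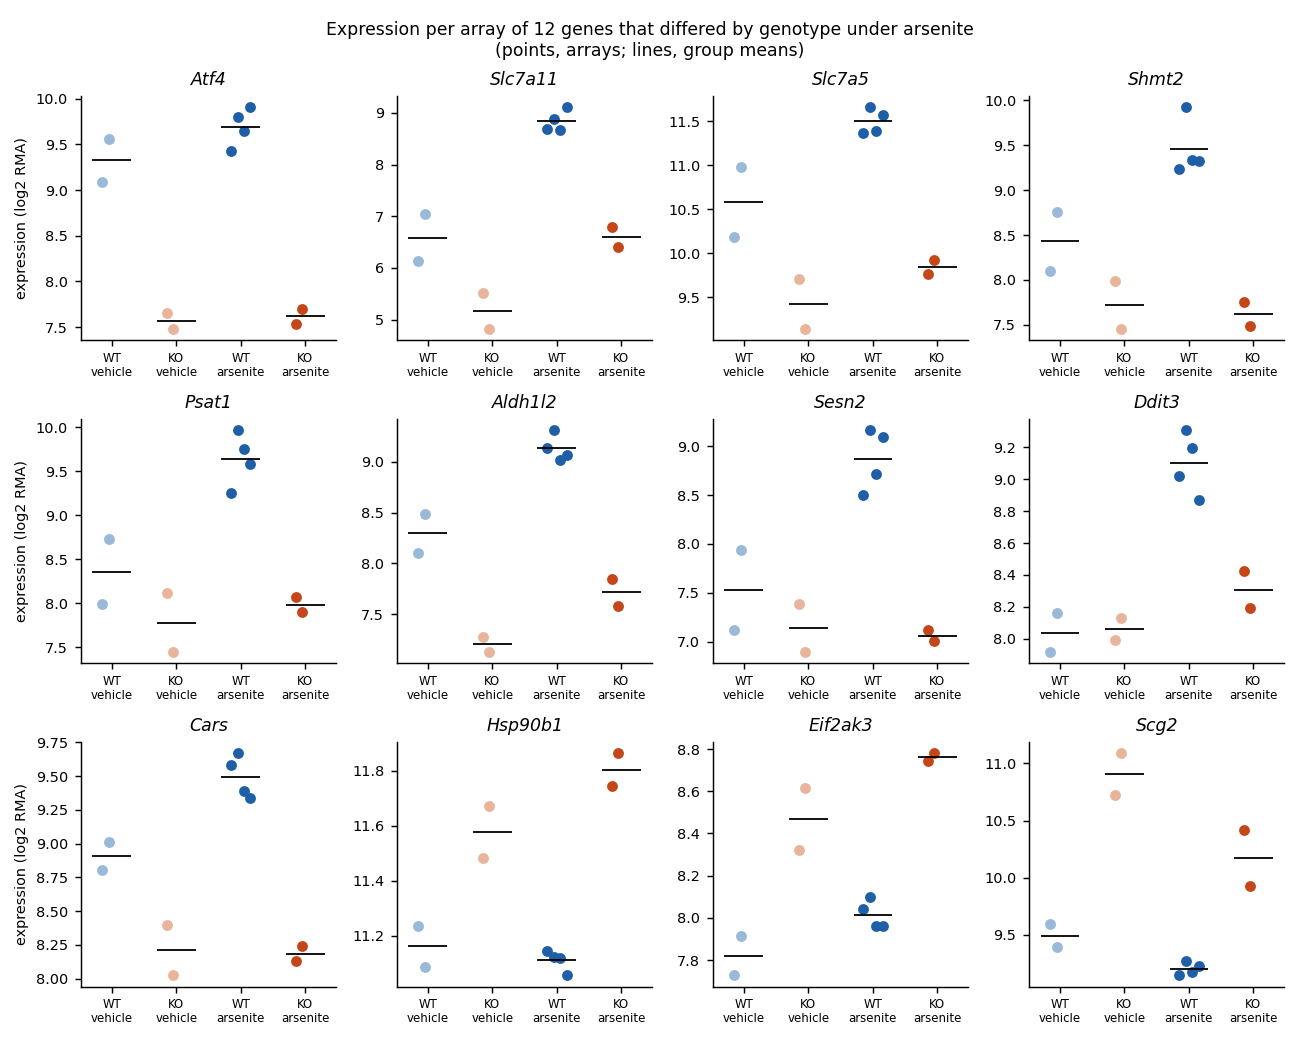
Expression (vertical axis, log2 RMA) of 12 called genes in every array, by group (WT, wildtype; KO, ATF4-deficient), with lines at group means. In each panel the KO arsenite points lie wholly to 1 side of the 4 WT arsenite points, below them for 9 genes and above them for Hsp90b1, Eif2ak3 and Scg2.

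Enzymes that make serine and load carbon onto folate were among the steepest differences. Of 12 measured, 5 were lower, 0 higher and 7 did not pass (list median -0.70). Shmt2, the mitochondrial enzyme that splits serine into glycine and a folate-bound carbon, was at 9.24, 9.93, 9.34 and 9.33 in wildtype and 7.76 and 7.49 in ATF4-deficient arrays (-1.84, SE 0.23, adjusted p = 0.00793). Psat1, the aminotransferase of serine synthesis, was at 9.25, 9.97, 9.75 and 9.58 against 8.07 and 7.90 (-1.65, SE 0.24, adjusted p = 0.0180). Aldh1l2, a mitochondrial folate dehydrogenase, was at 9.13, 9.31, 9.02 and 9.06 against 7.85 and 7.59 (-1.41, SE 0.13, adjusted p = 0.00329). In each of the 3 the arsenite groups were separated by more than the whole spread within either.

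The phosphatase Psph (-0.89, adjusted p = 0.0180) and the mitochondrial synthetase Mthfd1l (-0.74, adjusted p = 0.0180) completed the called enzymes of that list. Mthfd2, the mitochondrial folate dehydrogenase, missed the threshold (-1.44, SE 0.26, adjusted p = 0.0505), with its deficient arrays at 6.95 and 7.68 further apart than those of the called enzymes. Its wildtype arrays lay at 8.34, 9.09, 8.73 and 8.86, so the groups did not overlap. Of the other brightest members that did not pass, the cytosolic folate enzyme Mthfd1 was at -0.05, the thymidylate synthase Tyms at 0.10 and Mthfd2l, a mitochondrial isoform, at 0.44 (adjusted p = 0.232).

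Of 10 genes for asparagine, proline and transaminase enzymes, 4 were lower and 6 did not pass (median -0.56). Aldh18a1, which begins proline synthesis from glutamate, was at 9.57, 9.78, 9.31 and 9.62 in wildtype and 8.42 and 8.12 in ATF4-deficient arrays (-1.30, SE 0.16, adjusted p = 0.00793). Pck2, the mitochondrial phosphoenolpyruvate carboxykinase, differed by -0.92, the alanine transaminase Gpt2 by -0.79 and the branched-chain transaminase Bcat1 by -0.65. Asns, the asparagine synthetase, resembled Mthfd2: its deficient arrays were at 9.12 and 9.75 and its wildtype arrays between 10.15 and 10.70, a difference of -1.03 that missed the threshold (adjusted p = 0.0532). With dim genes left out of the fit, Mthfd2 and Asns both passed (adjusted p = 0.0316 for Mthfd2 and 0.0325 for Asns). Both also passed with a trended robust prior (0.0393 and 0.0455). Neither passed with the arsenite arrays alone (0.0839 and 0.137), a replicate block (0.110 for each), array weights (0.127 and 0.111) or equal array medians (0.0686 and 0.0769). Glul, the glutamine synthetase that astrocytes are known for, was at -0.29 (adjusted p = 0.628), and the aspartate transaminases Got1 and Got2 were at -0.47 and -0.10.

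Amino acid transporters gave the widest range. Of 13 measured, 6 were lower and 7 did not pass, with a median of -0.39. Slc7a11, the cystine importer that feeds glutathione synthesis, was at 8.70, 8.87, 8.67 and 9.12 in wildtype and 6.79 and 6.41 in ATF4-deficient arsenite arrays (-2.24, SE 0.25, adjusted p = 0.00603). Its deficient mean lay just under the dim reference, which limits how far a lower level can be read. Under vehicle each genotype was lower than under arsenite, at 6.13 and 7.04 against 5.51 and 4.82, so the deficient arsenite arrays stood within the range of the wildtype vehicle arrays. A further probe set of Slc7a11 was dim in both groups and differed by -0.19.

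Slc7a5, the large neutral amino acid transporter LAT1, was at 11.37, 11.67, 11.40 and 11.57 in wildtype and 9.76 and 9.93 in ATF4-deficient arrays (-1.66, SE 0.21, adjusted p = 0.00793). Slc3a2, the heavy chain that Slc7a5 and Slc7a11 both need to reach the membrane, was at 10.81, 10.94, 10.85 and 10.87 against 9.76 and 9.52 (-1.23, SE 0.13, adjusted p = 0.00523). The partners thus lay on the same side, and their arrays did not overlap. The cationic transporters Slc7a1 (-1.58, adjusted p = 0.00793) and Slc7a3 (-1.47, adjusted p = 0.0283) and the neutral transporter Slc1a4 (-1.45, adjusted p = 0.00523) were lower too. The deficient arsenite mean of Slc7a3, 6.31, was under the dim reference, which limits how far the size of its difference can be read. The brightest members that did not pass were Slc38a1 (-0.08), Slc38a2 (-0.20), Slc36a4 (-0.02) and Slc7a6 (0.25), so the list held a group of strongly lower genes beside a group near 0.

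Of 12 measured cysteine and glutathione genes, Slc7a11 and Chac1, already given, were the 2 called. The synthesis subunits Gclc (-0.08) and Gclm (-0.25), the reductase Gsr (0.23) and the peroxidase Gpx1 (-0.41) did not pass, and the list median was -0.14. Of 9 secreted factors linked to ATF4, the growth factor gene Vegfa was lower, at 8.89, 9.43, 9.19 and 9.08 against 8.13 and 8.42 (-0.87, adjusted p = 0.0478). Stc2 (-0.50) and the lipoprotein receptor gene Vldlr (-0.46) did not pass, and Fgf21 and Adm2 were under the dim reference in both groups.

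Charging of tRNAs separated by compartment. Of 18 measured cytosolic aminoacyl-tRNA synthetases, which attach amino acids to tRNAs for translation in the cytosol, 8 were lower, 0 higher and 10 did not pass (median -0.56). Of 16 mitochondrial ones, 0 passed in either direction (median 0.01, range -0.21 to 0.28). The cysteine enzyme Cars was at 9.59, 9.67, 9.39 and 9.34 in wildtype and 8.13 and 8.24 in ATF4-deficient arrays (-1.31, SE 0.13, adjusted p = 0.00480). The threonine enzyme Tars was at 9.48, 10.12, 9.97 and 9.94 against 8.44 and 8.86 (-1.23, SE 0.19, adjusted p = 0.0232). The tyrosine enzyme Yars (-1.04), the methionine enzyme Mars1 (-0.85) and the leucine, asparagine, isoleucine and serine enzymes Lars (-0.77), Nars (-0.77), Iars (-0.75) and Sars (-0.52) followed.

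Not every cytosolic synthetase was lower. Gars (-0.63, adjusted p = 0.118) and Eprs (-0.61, adjusted p = 0.190) did not pass, although their arrays did not overlap, and Kars (0.13) and Hars (0.12) lay on the other side of 0. Of the mitochondrial enzymes, Cars2 (-0.08), Iars2 (-0.04), Lars2 (0.01) and Rars2 (0.28) were the brightest. The difference between the compartments was described by these counts and medians and was not tested.

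Over the 7 lists together, 87 genes were measured, of which 31 were lower, 0 higher and 56 did not pass. Atf4, the targeted gene, is among the 87 and the 31. Their median difference was -0.39 log2, beside 0.02 over all genes. The lists gather pathways and gene families around what ATF4 is known to switch on, and not every member is a known ATF4 target. Gclc, Gclm and Gsr, for example, are also on the list of NRF2 targets. The lists were set up with earlier results of these arrays known, so their direction is not independent evidence. The mean of the 87 genes in the wildtype arsenite arrays was 8.57, 8.78, 8.65 and 8.66, and in the ATF4-deficient arsenite arrays 8.11 and 8.14. It was 8.21 and 8.41 in wildtype vehicle and 8.11 and 7.97 in ATF4-deficient vehicle arrays. The wildtype arsenite arrays were therefore the highest of the 10, and the deficient arsenite arrays lay at or just above the deficient vehicle arrays.

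**Figure D3:**
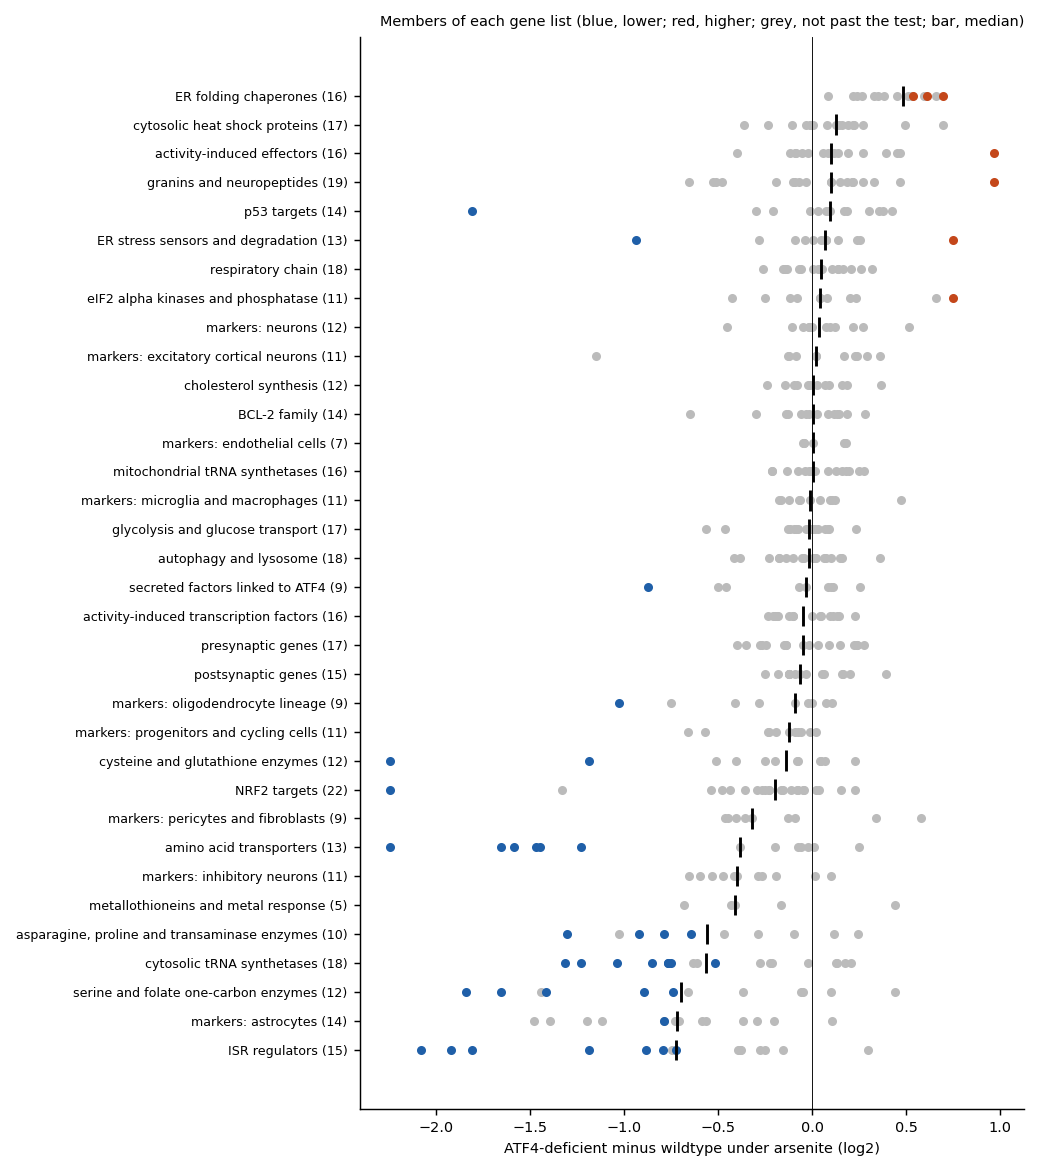
Genotype difference under arsenite (horizontal axis, log2) of every measured member of 34 gene lists, ordered by list median (black bar), with the number measured in brackets. Called members are blue (lower) or red (higher); regulators, serine and folate enzymes, asparagine and proline enzymes, cytosolic synthetases and astrocyte markers have medians of -0.56 or lower, and endoplasmic reticulum chaperones have the highest, 0.48.

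Among the genes higher in ATF4-deficient neurons were 3 of another arm of protein homeostasis. Endoplasmic reticulum chaperones fold secretory and membrane proteins and are known targets of the unfolded protein sensors ATF6 and IRE1. Of 16 measured, 3 were higher, 0 lower and 13 did not pass. All 16 differences were positive, against 12040 of 22180 over all genes. In 13 the deficient arsenite arrays were higher without overlap, as in 10.6% of all genes. The list median was 0.48.

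Hsp90b1, which encodes the chaperone GRP94, was at 11.14, 11.12, 11.12 and 11.06 in wildtype and 11.74 and 11.86 in ATF4-deficient arrays. It was 1.62-fold higher (0.69 log2, SE 0.09, adjusted p = 0.00918). Pdia6, a disulfide isomerase, was at 9.30, 9.20, 9.19 and 9.21 against 9.78 and 9.89 (0.61, SE 0.08, adjusted p = 0.00940). Hspa5, which encodes BiP, was at 9.15, 9.18, 9.10 and 8.99 against 9.69 and 9.59 (0.53, SE 0.09, adjusted p = 0.0478), and its call ended when any of the 10 arrays was left out (adjusted p up to 0.187). The separation was small in size for all 3 but several times the spread within a group.

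The brightest chaperones that did not pass were the J-domain protein Dnajb9 (0.51, adjusted p = 0.102), the lectins Calr (0.38) and Canx (0.33) and the disulfide isomerase Pdia3 (0.26). Dnajc3, a co-chaperone also known as an inhibitor of eIF2α kinases, was at 0.66 (adjusted p = 0.0788). With dim genes left out it was at 0.0493, the only setting in which it passed. The mean of the 16 genes was 9.10, 9.16, 9.09 and 8.98 in wildtype arsenite and 9.45 and 9.59 in ATF4-deficient arsenite arrays. Under vehicle it was 9.15 and 9.17 against 9.44 and 9.49, so the deficient arrays were the higher ones there too (median difference 0.32, 0 of 16 called). Nucb2, a calcium-binding protein of the secretory pathway outside the lists, was at 9.75, 9.69, 9.72 and 9.62 against 10.34 and 10.39 (0.67, adjusted p = 0.0112).

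Sensors and degradation factors of the endoplasmic reticulum were mixed. Of 13 measured, Eif2ak3 was higher and Herpud1 lower, 9 differences were positive and 4 negative, and the median was 0.07. Herpud1, a membrane protein of endoplasmic reticulum degradation whose gene ATF4 is also known to bind, was at 9.98, 10.29, 9.97 and 10.24 in wildtype and 9.39 and 8.98 in ATF4-deficient arrays (-0.93, adjusted p = 0.0371). Its vehicle difference was -0.08. The factors Atf6 (-0.04) and Xbp1 (0.07), the ligase adaptor Sel1l (0.07) and Derl1 (0.04) gave small differences. Cytosolic heat shock proteins had 0 called of 17 and a median of 0.13.

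The promoters of the chaperones carry another known element. The endoplasmic reticulum stress element, CCAAT and CCACG with 9 bases of any kind between them, was searched on both strands after the chaperone values had been seen, and it does not overlap TGATGNAA. It occurred in 0.113% of 32851 windows and 0.159% of tested genes with one. It was found in 3 of 3 called chaperones and 8 of the 14 measured chaperones with a window (57.1%). Of the 67 genes of the 7 lists with a window, 0 held it, which at a share of 0.159% over tested genes says little. TGATGNAA was in 0 of the 14 chaperones, and its share of 3.40% over tested genes makes that count uninformative too. Windows of Hsp90b1 (chr10:86705445-86705694, minus strand) and Hspa5 (chr2:34771840-34772089, plus strand) are printed because they can be set beside those of the lower genes, with matches in capitals.
Hsp90b1: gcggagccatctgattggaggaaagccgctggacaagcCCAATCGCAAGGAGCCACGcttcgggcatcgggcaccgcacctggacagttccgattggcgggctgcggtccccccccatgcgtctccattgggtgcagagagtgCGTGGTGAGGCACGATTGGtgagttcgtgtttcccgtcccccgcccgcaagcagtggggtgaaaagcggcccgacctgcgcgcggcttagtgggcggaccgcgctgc
Hspa5: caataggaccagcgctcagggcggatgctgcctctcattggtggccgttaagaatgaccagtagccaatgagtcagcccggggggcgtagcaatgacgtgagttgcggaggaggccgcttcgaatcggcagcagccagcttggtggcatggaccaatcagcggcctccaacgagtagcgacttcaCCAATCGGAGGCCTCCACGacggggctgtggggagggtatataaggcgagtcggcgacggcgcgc
Hsp90b1 holds a match on each strand, at 212 to 194 and 107 to 89 bases before the start, and Hspa5 holds 1 at 65 to 47 bases.

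The remaining higher genes were of several kinds. Scg2, the granin secretogranin II of dense-core vesicles and a gene that neuronal activity induces, was at 9.15, 9.27, 9.18 and 9.22 in wildtype and 10.41 and 9.93 in ATF4-deficient arrays (0.97, SE 0.14, adjusted p = 0.0178). Both deficient arrays were above the wildtype ones, though they were further apart than the 4 wildtype arrays. Its vehicle difference was larger, 1.42. Rxfp1, a relaxin receptor, was at 6.20, 6.03, 6.07 and 5.85 against 6.76 and 6.65, with its wildtype mean under the dim reference (0.67, adjusted p = 0.0481), and here too the vehicle difference was larger, 1.70. Scg2 was the 1 called member of both the 19 granins and neuropeptides (median 0.10) and the 16 activity-induced effectors (median 0.10).

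Tceal9 (0.79), the zinc finger gene Zfp994 (0.68), the ubiquitin protease gene Usp29 (0.60) and Arhgap26 (0.48) were also called. A further probe set of Tceal9, about as bright in wildtype arrays (9.54 against 9.58), differed by 0.13, so that call holds for 1 of its probe sets only. Another probe set of Arhgap26 differed by 0.45, and the third was under the dim reference in both groups. The bitter taste receptor genes Tas2r137 (0.71, adjusted p = 0.00793) and Tas2r108 (0.70, adjusted p = 0.0180) were at or near the dim reference. Tas2r137 was at 6.63, 6.65, 6.64 and 6.65 in wildtype and 7.37 and 7.35 in ATF4-deficient arsenite arrays, and between 6.03 and 6.45 in all 4 vehicle arrays.

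Of the 60 lower genes, 26 were on no list, with differences from -1.70 to -0.52. They were described after their values were seen. Slc38a3, a glutamine transporter, was at 8.98, 8.49, 8.53 and 9.05 in wildtype and 7.77 and 7.31 in ATF4-deficient arrays (-1.22, adjusted p = 0.0224) and was called under vehicle as well (-1.44). Kcnt2, a sodium-activated potassium channel subunit, differed by -0.91, the dopamine receptor gene Drd2 by -0.70 and Ndnf, a secreted neurotrophic factor, by -0.77. Cyb5r3, a cytochrome b5 reductase, was at 10.43, 10.16, 10.02 and 10.43 against 9.53 and 8.80 (-1.10, adjusted p = 0.0318), with the deficient arrays far apart. Clic4 (-1.06), Trim66 (-1.02), Hax1 (-0.83), a mitochondrial anti-apoptotic protein, and Atxn2l (-0.77), a stress granule protein, had small vehicle differences of -0.42, -0.13, -0.13 and -0.29.

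Antioxidant genes driven by NRF2 are the other known arm of the arsenite response. Of 22 measured, Slc7a11 was the 1 called, and the median was -0.20, with 18 negative. Under vehicle the list was about as low, with a median of -0.25, 19 negative and 0 called. Hmox1, the haem-degrading enzyme haem oxygenase 1, was chosen for description after its values were seen. It was at 11.02, 11.04, 10.68 and 10.72 in wildtype and 9.90 and 9.18 in ATF4-deficient arsenite arrays, and under vehicle at 7.48 and 7.76 in wildtype and 8.05 and 6.67 in ATF4-deficient arrays. Both deficient arsenite arrays were thus far above every vehicle array and below every wildtype arsenite array, but the difference of -1.33 (SE 0.31) missed the threshold (adjusted p = 0.129). The Hmox1 difference also missed it with the arsenite arrays alone (adjusted p = 0.0640), a replicate block (0.154) and array weights (0.282). Without ATF4-deficient arsenite replicate 1 the difference was -1.69, and without replicate 2 it was -0.96. The thioredoxin reductase gene Txnrd1 (0.02), the thioredoxin gene Txn1 (0.15), the ferritin gene Fth1 (-0.04) and the haem transporter Slc48a1 (-0.43) were the brightest of the rest. The metallothionein genes Mt1 (-0.43), Mt2 (-0.41) and Mt3 (-0.68) did not pass, with 0 of 5 metal-response genes called. Without ATF4-deficient arsenite replicate 2, Mt1 and Mt2 were at 0.03 and 0.04.

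Other processes gave 0 calls under arsenite in either direction. These were 14 BCL-2 family genes, 17 glycolytic, 12 cholesterol, 18 autophagy and lysosome and 18 respiratory chain genes, with medians between -0.02 and 0.04. The 17 presynaptic and 15 postsynaptic genes had medians of -0.05 and -0.06. Of 14 p53 targets, Sesn2 was the 1 called, and the median was 0.09. Of 16 activity-induced transcription factors, 0 were called under arsenite (median -0.05) and 4 were called higher under vehicle (median 0.34). Under arsenite 3 of the 16 were lower and 0 higher without overlap, beside 7.95% and 10.6% of all genes (18.5% either way). Nr4a3 was at 9.16, 8.92, 8.67 and 9.28 in wildtype and 8.98 and 9.03 in ATF4-deficient arsenite arrays, overlapping fully, while its vehicle values were 9.99 and 10.13 against 10.74 and 11.53.

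Markers of cell types were read for the cultures. Neuron markers were well above the dim reference in all 12 genes, and their mean was 10.45 to 10.62 in wildtype and 10.62 and 10.57 in ATF4-deficient arsenite arrays (median difference 0.03, 0 called). The brightest were Map2 (0.07), a dendritic microtubule protein, the synaptic vesicle genes Snap25 (-0.05) and Syt1 (-0.01), and Stmn2 (0.00). Excitatory markers had a median of 0.02 and inhibitory markers of -0.40, with 0 of 11 called in each. Of the inhibitory markers 9 were negative, 5 of them without overlap between the arsenite groups, an arrangement found in 7.95% of all genes. Microglia markers (median -0.01), progenitor markers (-0.12), endothelial markers (0.01, 5 of 7 under the dim reference) and pericyte and fibroblast markers (-0.32) had 0 called.

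Astrocyte markers lay below their wildtype levels in both conditions, mostly without passing the test. Of 14 measured, the glial transcription factor gene Sox9 was called (8.36, 8.29, 8.13 and 8.41 against 7.62 and 7.40, difference -0.79, adjusted p = 0.0372) and 13 did not pass. Under arsenite 11 of the 14 were lower without overlap, beside 7.95% of all genes. The list median was -0.72 under arsenite and -1.38 under vehicle, where 5 were called. The list mean was 8.65, 8.34, 8.23 and 8.85 in wildtype arsenite, 7.99 and 7.60 in ATF4-deficient arsenite, 8.85 and 9.10 in wildtype vehicle and 8.01 and 7.53 in ATF4-deficient vehicle arrays. The glutamate transporter gene Slc1a3 was at 9.92, 9.44, 9.27 and 10.07 against 8.72 and 7.67 under arsenite (-1.48, adjusted p = 0.130), so its deficient arrays were lower but more than 1 log2 apart. Mfge8 (-1.40, adjusted p = 0.126), Sparcl1 (-0.79) and Fabp7 (-0.59) did not pass either.

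Olig2, a transcription factor of the oligodendrocyte lineage, was at 8.48, 8.51, 8.20 and 8.51 in wildtype and 7.67 and 7.13 in ATF4-deficient arrays (-1.03, adjusted p = 0.0473), while the 9 markers of that lineage had a median of -0.09. Fewer cells of a type and less RNA per cell cannot be told apart in these bulk samples. The part of the astrocyte and inhibitory neuron marker differences in the results above was not tested.

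The genotypes were also compared under vehicle, to set the arsenite differences beside those without arsenite. Under vehicle 96 genes passed (0.433%), 40 higher (0.180%) and 56 lower (0.252%). Of the 76 genes called under arsenite, 12 were among them, which is 15.8% of the arsenite calls and 12.5% of the vehicle calls, and all 12 lay on the same side in both. They were Atf4, Slc1a4, Aldh1l2, Slc38a3, Ndnf, Rps19bp1, Egln3 and Gpc4, lower, and Scg2, Tceal9, Eif2ak3 and Rxfp1, higher. These comparisons share no array but share the estimate of spread. Of the 60 lower genes 58 were negative under vehicle too, with a median of -0.51 there and -0.88 under arsenite.

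The difference between the conditions was tested by the interaction, which is the arsenite difference minus the vehicle difference. It called 0 genes in limma (smallest adjusted p = 0.340), and at an unadjusted p below 0.05 there were 605 genes with a negative (2.73%) and 725 with a positive interaction (3.27%). At that unadjusted level 34 of the 60 lower genes stood out, all 34 with a more negative difference under arsenite. The 60 genes were chosen on the arsenite difference, which enlarges it, so that count is a description. By size, Sesn2 had an interaction of -1.41 (SE 0.36, unadjusted p = 0.00256, adjusted p = 0.724), Shmt2 of -1.13 and Psat1 of -1.07. Atf4 (-0.32), Aldh1l2 (-0.32) and Slc38a3 (0.22) had smaller ones, and Rxfp1 one of -1.03 on the higher side. No gene was therefore shown to differ in its genotype effect between arsenite and vehicle.

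**Figure D4:**
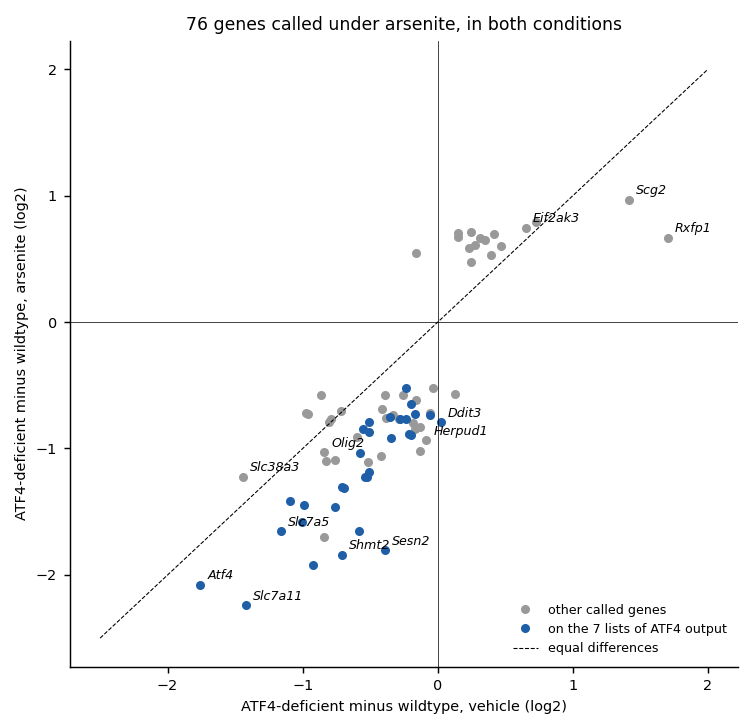
Genotype difference of the 76 called genes under arsenite (vertical axis, log2) against that under vehicle (horizontal axis, log2), with members of the 7 lists of ATF4 output in blue and a dashed line of equal differences. Sesn2, Shmt2, Ddit3 and Herpud1 lie below the line, with vehicle differences of -0.39, -0.71, 0.02 and -0.08, Slc38a3 lies near it, and Rxfp1 and Scg2 have larger differences under vehicle.

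Precision rests on 2 deficient arrays. Array medians lay between 6.75 and 6.81, any pair of arrays correlated at 0.982 to 0.994 across genes, which are not independent replicates, and on the first principal component of the values replicate 2 of the ATF4-deficient arsenite arrays scored 29.4 while the remaining 9 scored -18.2 to 8.70. Without that replicate 1 gene was called (Atf4), and without ATF4-deficient arsenite replicate 1 there were 5 (Atf4, Aldh1l2, Slc3a2, Cyb5r3 and B230209E15Rik). All 76 differences kept their sign in both cases. With arsenite arrays that do not overlap, no other outcome was possible. The median of the lower genes was -0.92 without replicate 1 and -0.84 without replicate 2, and that of the higher genes 0.70 and 0.64. Leaving out each of the other 8 arrays in turn, 27 of the 76 genes were called every time, 21 lower and 6 higher, and 8 were called in none of these fits, among them Sars, Hspa5, Arhgap26, Trim66 and Egln3.

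**Figure D5:**
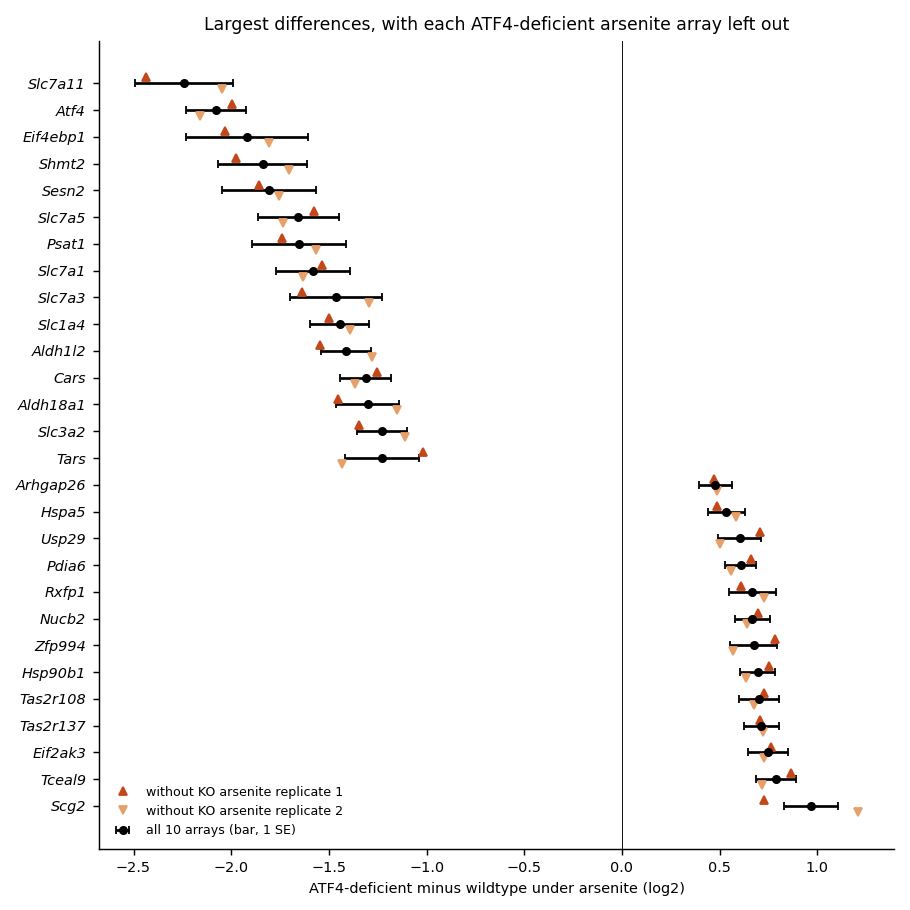
Genotype difference under arsenite (horizontal axis, log2) of the largest named falls and rises with all 10 arrays (black, bar of 1 SE) and without ATF4-deficient arsenite replicate 1 or 2 (triangles). Every triangle stays on the same side of 0 as its black point, as it must where the arsenite groups do not overlap. Scg2 moves most among the higher genes, between 0.73 and 1.21.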

How the data were processed

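Total RNA (100 ng, Trizol) of each sample was labelled with the Affymetrix WT PLUS kit for mouse arrays, per the labels' protocols. The authors deposited log2 expression values, made with RMA in Partek 6.6, per the submitters' processing notes. RMA makes the array distributions equal, so a shift shared by most transcripts would not show. Scanner files were not used here.

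Of 41345 probe sets, 23521 had exactly 1 symbol in the platform annotation, 1814 several and 16010 none. Symbols were matched to RefSeq (23328 by Entrez identifier, 193 kept as given). For 1082 genes with several probe sets that with the highest mean over all arrays was kept, leaving 22180 genes, 13524 of them above the dim reference. No filter on signal was used.

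Groups came from the titles, which call the samples biological replicates. Since no separate embryos, litters or cultures are named, each p-value reflects the spread among these samples alone, which may be technical. No 2 arrays shared more than 2.58% of their values. All 10 arrays entered a single limma fit (3.58.1, R 4.3.3) of 1 mean for each group, moderated by eBayes (6 residual and 5.08 prior degrees of freedom), and p-values were adjusted by Benjamini-Hochberg over all genes. The script was tested on simulated data. Fold is 2 to the power of the difference. No scan date or batch was in the sources used here.

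Genes and lists were chosen with earlier results of these data known. Named were the largest differences each way, at most 15, among called genes whose arsenite arrays did not overlap. Gene models, clones and chemosensory receptors of nose and vomeronasal organ were left out, and fewer than 15 rises remained. Called list members, the 4 brightest uncalled members of a list, and others marked as chosen later were named too. Alternatives were the arsenite arrays alone, a replicate block, array weights, equal medians, no dim genes, the mean of probe sets, a trended robust prior and leaving out each array.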

Additional observations from a re-analysis of the deposited data

Results flagged for a closer look

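Of the 136 genes named or called, 6 had 1 of the 4 wildtype arsenite arrays far from the other 3, by a gap large against the group's range. A gap of that size arises by chance in about 1 group in 20. Shmt2 was at 9.93 in wildtype arsenite replicate 2, against 9.24 to 9.34 in the others. Olig2 was at 8.20 in replicate 3, against 8.48 to 8.51, and the chaperone gene Dnajb9 at 9.16 there, against 9.35 to 9.39. Mei4, a meiotic recombination gene with its deficient mean under the dim reference, was at 6.90 in replicate 4, against 6.70 to 6.73. In replicate 1, Pdia6 was at 9.30, against 9.19 to 9.21, and Zfp994 was at 8.07, against 7.97 to 7.99.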

How the results depend on the processing

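The number of arrays limits the precision here, and values under 6.63 have little order. No setting turned the direction of any of the 76 called genes or of Atf4, and the interaction called 0 genes in every fit. For the fits without 1 array that direction was fixed in advance, because the arsenite groups of these genes do not overlap. The 76 calls under arsenite (16 higher, 60 lower) became 41 with the arsenite arrays alone (30 lower, 11 higher), 40 with array weights (9 and 31), 62 with equal array medians (9 higher) and 93 with dim genes left out. Leaving out 1 array gave 1 to 64 calls, 0 to 12 higher and 1 to 52 lower. The labels give same-numbered samples no shared origin, and deviations of same-numbered arrays correlated between -0.056 and 0.403 (0.225 and 0.386 between the arsenite groups), so the numbers were not taken as pairing. With the replicate block 4 genes were called, 0 higher and 4 lower (Atf4, Aldh1l2, Cars and Pck2). The 96 vehicle calls (40 higher, 56 lower) became 165 with that block (109 lower), 228 with array weights (86 and 142), 193 with dim genes left out (133 lower), 144 with the trended prior (87 lower) and 0 to 99 without 1 array (0 to 42 higher, 0 to 57 lower). The cause of these changes was not tested. With dim genes left out, list medians moved to -0.81 for transporters, -0.50 for secreted factors and -0.19 for the oligodendrocyte lineage, through fewer genes. Without 1 array, medians spanned -0.86 to 0.031 for metal-response genes, -0.18 to 0.12 for activity-induced transcription factors, -0.0097 to 0.12 for neurons, -0.45 to -0.18 for inhibitory neurons, -0.032 to 0.084 for microglia and -0.45 to -0.16 for pericytes and fibroblasts. For the eIF2α kinases, phosphatase subunits and linked factors they spanned -0.0054 to 0.093 (-0.013 with the block). Of 60 named genes that were not called, 18 turned sign in some fit. With the block these were Adm2 (0.12), Eif2ak1 (-0.013), Lars2 (-0.015), Nr4a3 (-0.033), Stmn2 (0.0029), Txnrd1 (-0.069) and Xbp1 (-0.011), with equal medians Stmn2 (0.0065), and with the mean of probe sets Got2 (0.021) and Slc36a4 (0.23). Without 1 array the ranges were -0.086 to 0.052 for Adm2, -0.015 to 0.11 for Eif2ak1, -0.11 to 0.091 for Nr4a3, -0.11 to 0.10 for Stmn2, -0.13 to 0.17 for Txnrd1, -0.019 to 0.16 for Xbp1, -0.24 to 0.20 for Slc36a4, -0.15 to 0.12 for Syt1, -0.21 to 0.051 for Gclc, -0.035 to 0.12 for Derl1, -0.27 to 0.20 for Iars2, -0.16 to 0.0084 for Cars2, -0.028 to 0.48 for Gsr, -0.89 to 0.031 for Mt1, -0.86 to 0.041 for Mt2 and -0.23 to 0.13 for Snap25.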
